A study of Homo sapiens with 30 samples.

Results

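The genes described here are 10 regulators that act upstream of the kinase complex mTORC1: TSC1, TSC2, RHEB, DDIT4, DDIT4L, SESN1, SESN2, SESN3, DEPDC5 and NPRL2. They were chosen by name as parts of the TSC, REDD1, sestrin and GATOR1 branches, and all 10 were found among the 58735 genes of the deposited table. Of these, 9 passed the filter on low counts that left 18296 genes for testing, and DDIT4L did not. Transcript levels were measured by RNA sequencing in 30 libraries of LNCaP, an established human prostate cancer line that responds to androgen. Every group carried an shRNA against mTOR. The 5 lines differed in what was put back through an inducible system: wild-type mTOR (WT), mTOR tagged with a nuclear export signal (NES), mTOR tagged with a nuclear localization signal (NLS), the same nuclear form with the kinase-dead change D2357E (NLSKD), or an empty vector (EV). All cells were first kept for 48 h in 2% charcoal-stripped serum, which removes androgen. They were then given 10 nM R1881, a synthetic androgen, or 0.1% ethanol as vehicle for 24 h. Each of the 10 groups had 3 libraries, no group lacked the shRNA, and the promoter of the constructs and the number of clones behind a line are not stated in the labels. The labels do not say whether the 3 libraries of a group came from separate cultures, so p-values measure only the spread between these libraries, which may be technical.

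mTORC1 is switched on at the lysosome by RHEB, a small GTPase, and the TSC complex keeps RHEB off by speeding up its GTP hydrolysis. TSC1 is the scaffold of that complex and TSC2 its GTPase-activating subunit, while DDIT4 (REDD1), a protein made under hypoxia and other stress, and its relative DDIT4L (REDD2) act through TSC to lower mTORC1 activity. The amino acid branch runs through the Rag GTPases: GATOR1, which contains DEPDC5 and NPRL2, turns the Rag signal off, and the sestrins hold back GATOR2, the inhibitor of GATOR1. SESN2 is a leucine sensor induced by ATF4, SESN1 is its stress-induced relative, and SESN3 is a target of FOXO factors. In prostate cancer cells androgen and mTORC1 are both drivers of growth.

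The sestrins were the members with differences that passed the threshold of the main edgeR test given below. The 250 bases before their annotated starts are therefore shown, from RefSeq on GRCh38.p14 and written 5′ to 3′ along the gene. Capitals mark GC boxes (GGGCGG) and CCAAT boxes (CCAAT) on either strand. SESN1 has 3 such windows and the outermost is printed. RefSeq starts can differ from the gene bounds used for the counts, and the SESN3 window reaches inside its bounds (95165513 to 95232541).
SESN1 (chr6:109094847-109095096, minus strand): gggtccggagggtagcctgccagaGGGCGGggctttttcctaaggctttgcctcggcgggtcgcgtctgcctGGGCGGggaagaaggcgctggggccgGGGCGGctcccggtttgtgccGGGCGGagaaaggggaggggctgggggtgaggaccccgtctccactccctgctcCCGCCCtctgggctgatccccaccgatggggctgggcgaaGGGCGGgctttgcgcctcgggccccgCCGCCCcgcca
SESN2 (chr1:28259268-28259517, plus strand): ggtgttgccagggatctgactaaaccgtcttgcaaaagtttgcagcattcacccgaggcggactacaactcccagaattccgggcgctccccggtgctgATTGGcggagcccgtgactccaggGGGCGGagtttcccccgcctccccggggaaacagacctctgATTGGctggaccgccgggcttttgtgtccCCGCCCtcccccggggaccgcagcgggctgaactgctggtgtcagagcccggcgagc
SESN3 (chr11:95232476-95232725, minus strand): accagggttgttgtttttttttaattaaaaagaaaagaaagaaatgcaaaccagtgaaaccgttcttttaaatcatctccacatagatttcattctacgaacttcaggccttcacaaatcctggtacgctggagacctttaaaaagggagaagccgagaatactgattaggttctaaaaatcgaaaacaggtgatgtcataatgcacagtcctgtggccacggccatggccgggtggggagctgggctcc
The SESN3 window held neither box and had a GC content of 42.8%, whereas that of SESN2 was 65.6%, that of the printed SESN1 window was 74.4% and the median of all 35116 windows was 58%. All 10 members matched the RefSeq table, with 15 windows. The GC box stood in 13 of these 15 windows and in 42.6% of all windows, and DDIT4 and SESN3 were the members without it. The 15 windows are not independent, since those of DEPDC5 share bases with each other, as do those of TSC2. Apart from that of SESN3, the GC content of member windows ran from 60.4% to 77.2%, above the median of all windows. The CCAAT box stood in 6 of the 15 and in 32% of all. The FOXO element GTAAACA stood in 2.98% of all windows and in no member's. TSC2 was the member whose window held the ATF4 composite element TGATGNAA (3.14% of all windows) and the E-box CACGTG (6.34%), and these matches overlapped each other. DDIT4L was the member with a TATA box, TATAAA (10.7% of all windows). These are matches of letters on both strands in a short window, and no binding was measured.

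Library totals ran from 21.4 to 61.8 M counts (median 24.5 M), and the share of mitochondrially encoded counts ran from 3.9% to 11.7%, above 9% in 5 libraries. MTOR transcripts, which include those of the constructs, averaged 129, 346, 85.1, 87.8 and 5.45 FPKM under R1881 and 150, 430.5, 76.5, 83.6 and 2.10 FPKM under vehicle in the WT, NES, NLS, NLSKD and EV lines, so the amount of rescue transcript differed between lines along with the construct. KLK3, the androgen-induced PSA gene, rose with R1881 in all 5 lines by 1.91 to 3.14 on the log2 scale. Of the markers checked, the summed FPKM of 8 luminal prostate genes was 778 to 2214 over the 10 group means, against 0 to 0.960 for 3 basal genes, 2.14 to 6.46 for 3 mesenchymal genes, 0.161 to 0.480 for 3 neuroendocrine genes, 0 to 0.0532 for 2 immune genes and 0.299 to 2.24 for 2 endothelial genes. Some of these low markers moved with the comparisons: VIM, at most 4.84 FPKM as a group mean, was called higher than EV in all 8 comparisons, VWF, at most 2.24 FPKM, in 6, and KRT14, at most 0.960 FPKM, was called higher with R1881 in all 5 lines. Their part in the sestrin results was not tested. In bulk RNA, fewer cells of a type and less RNA per cell cannot be told apart.

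Over 26 comparisons, the sestrins gave 15 calls at an adjusted p under 0.05 (edgeR quasi-likelihood test, Benjamini-Hochberg over all tested genes), 9 lower and 6 higher. SESN1 gave 7 of them, SESN2 gave 6 and SESN3 gave 2. Over the 9 tested members, the 15 calls were 6.41% of 234 tests, beside 3.31% of all gene tests. They were 19.2% of the 78 sestrin tests, and the other 6 tested members gave 0 calls in 156 tests (0%). This split was made with the calls known and the comparisons share groups, so neither share tests the sestrins as a set. Of the 156 tests, 14 had an unadjusted p under 0.05. Among them there was 1 call by DESeq2, 0 by limma on log2(FPKM + 1) and 1 by limma on log2(FPKM + 0.1). No sestrin was called higher with R1881. Against EV, SESN2 was higher in both nuclear lines under both treatments, and SESN1 was higher in the WT line under R1881.

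The first comparison asked how androgen changed these regulators within each line. Of 45 member and line pairs, 8 were called and all were lower, or 17.8%, beside 6.47% of all gene and line pairs called in either direction. By line, the share of all tested genes called lower was 3.01% (WT), 4.04% (NES), 1.66% (NLS), 1.6% (NLSKD) and 4.55% (EV), and the share called in either direction was 6.48% (WT), 8.25% (NES), 4.44% (NLS), 4.08% (NLSKD) and 9.11% (EV). The members called were 1 of 9 in WT (SESN1), 2 of 9 in NES (SESN1 and SESN3), 1 of 9 in NLS (SESN1), 1 of 9 in NLSKD (SESN1) and 3 of 9 in EV (all sestrins). The median log2 fold change of the 9 members was -0.11 (WT), -0.07 (NES), -0.26 (NLS), -0.13 (NLSKD) and -0.30 (EV), beside 0.01, 0.00, 0.02, 0.01 and -0.04 over all genes tested, in the same order of lines.

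SESN1 (ENSG00000080546, hg38 chromosome 6, 108986437 to 109094819, minus strand) fell with R1881 in every line. In the WT line it stood at 28.3, 19.0 and 18.9 FPKM under R1881 and 61.9, 44.7 and 49.6 FPKM under vehicle. In the NES line it stood at 13.7, 13.3 and 13.7 FPKM under R1881 and 42.8, 28.9 and 29.03 FPKM under vehicle. In the EV line it stood at 15.0, 12.4 and 13.9 FPKM under R1881 and 40.5, 27.95 and 45.25 FPKM under vehicle. In these 3 lines the lowest vehicle library was well above the highest R1881 library. The NLS line had 18.8, 12.2 and 14.6 FPKM under R1881 and 24.4, 21.8 and 29.7 FPKM under vehicle. The NLSKD line had 14.6, 13.1 and 18.55 FPKM under R1881 and 25.2, 28.7 and 25.5 FPKM under vehicle. The groups did not overlap in either nuclear line, but the vehicle libraries of both lay lower than most of those of the other lines.

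The SESN1 log2 fold change with R1881 was -1.23 ± 0.21 in WT, -1.29 ± 0.21 in NES and -1.47 ± 0.21 in EV (SE, n = 3 libraries a group, edgeR adjusted p = 0.000182, 9.22e-05 and 1.42e-05). It was -0.73 ± 0.205 in NLS and -0.76 ± 0.205 in NLSKD (edgeR adjusted p = 0.0354 and 0.0301). The call in NLS was lost without NLS vehicle replicate 1 (adjusted p = 0.0651) or 3 (0.164) or NLS R1881 replicate 2 (0.162) or 3 (0.104), and that in NLSKD without NLSKD vehicle replicate 2 (0.125) or NLSKD R1881 replicate 1 (0.0987) or 2 (0.166). Without the 5 libraries above 9% mitochondrial counts the NLS and NLSKD values were -0.70 and -0.72 (edgeR adjusted p = 0.186 and 0.0884), and with only the groups compared in the fit the NLS value also missed the threshold (0.372), while WT, NES and EV kept their calls under every alternative and without any single library. Exons of AL390208.1 overlap 7.09% of the SESN1 exon length, with a median count of 5.

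SESN3 (ENSG00000149212, chromosome 11, 95165513 to 95232541, minus strand) varied most, by 5.76 times between its highest and lowest group means, and fell with R1881 in NES and EV. In the EV line it had 17.1, 9.99 and 15.7 FPKM under R1881 and 54.55, 27.7 and 49.6 FPKM under vehicle, with no overlap. In the NES line it had 10.4, 5.99 and 6.50 FPKM under R1881 and 34.3, 13.2 and 14.2 FPKM under vehicle, again with no overlap but with 1 vehicle library far above its partners. The log2 fold change was -1.41 ± 0.44 in NES and -1.64 ± 0.44 in EV (edgeR adjusted p = 0.0450 and 0.0160). It was -1.03 ± 0.43 (WT), -0.38 ± 0.43 (NLS) and -0.65 ± 0.43 (NLSKD), none of them called (edgeR adjusted p = 0.200, 0.904 and 0.734). Under a replicate block, the WT value was -1.06 and was called (adjusted p = 0.0111), as it was with only the groups compared (0.0204) and with no filter on low counts (0.000342). The EV call was lost without EV vehicle replicate 1 (adjusted p = 0.0745) or 3 (0.0543) or EV R1881 replicate 2 (0.0945). The NES call was lost in 14 of the 30 fits that left out 1 library, at adjusted p values up to 0.408, and its log2 fold change went to -0.84 without NES vehicle replicate 1. It was also lost with only the groups compared in the fit (0.0841), by limma with either pseudocount (0.0799 and 0.0732) and without the libraries above 9% mitochondrial counts (0.109).

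The WT line had 18.0, 10.4 and 9.85 FPKM of SESN3 under R1881 and 33.35, 23.5 and 21.5 FPKM under vehicle, with no overlap. The NLS line had 25.2, 5.32 and 10.5 FPKM under R1881 and 20.7, 11.1 and 21.25 FPKM under vehicle. The NLSKD line had 13.8, 7.50 and 17.0 FPKM under R1881 and 21.3, 19.5 and 20.04 FPKM under vehicle. The NLS groups overlapped and held the widest spread of any R1881 group, while the NLSKD groups did not overlap.

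SESN2 (ENSG00000130766, chromosome 1, 28259527 to 28282491, plus strand) was called lower with R1881 in EV. There it had 12.01, 7.42 and 11.7 FPKM under R1881 and 20.01, 15.9 and 14.7 FPKM under vehicle, which did not overlap. The log2 fold change was -0.71 ± 0.23 (edgeR adjusted p = 0.0497), and the call was lost in 25 of the 30 fits that left out 1 library, at adjusted p values up to 0.270, with RLE size factors (0.0538), with no filter on low counts (0.0544) and with only the groups compared (0.105). Elsewhere the value was -0.37 ± 0.23 (WT), -0.41 ± 0.23 (NES), -0.62 ± 0.23 (NLS) and -0.39 ± 0.23 (NLSKD) (edgeR adjusted p = 0.469, 0.359, 0.162 and 0.623). The libraries of WT and of NES did not overlap between treatments, and those of NLS and NLSKD did.

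**Figure D1:**
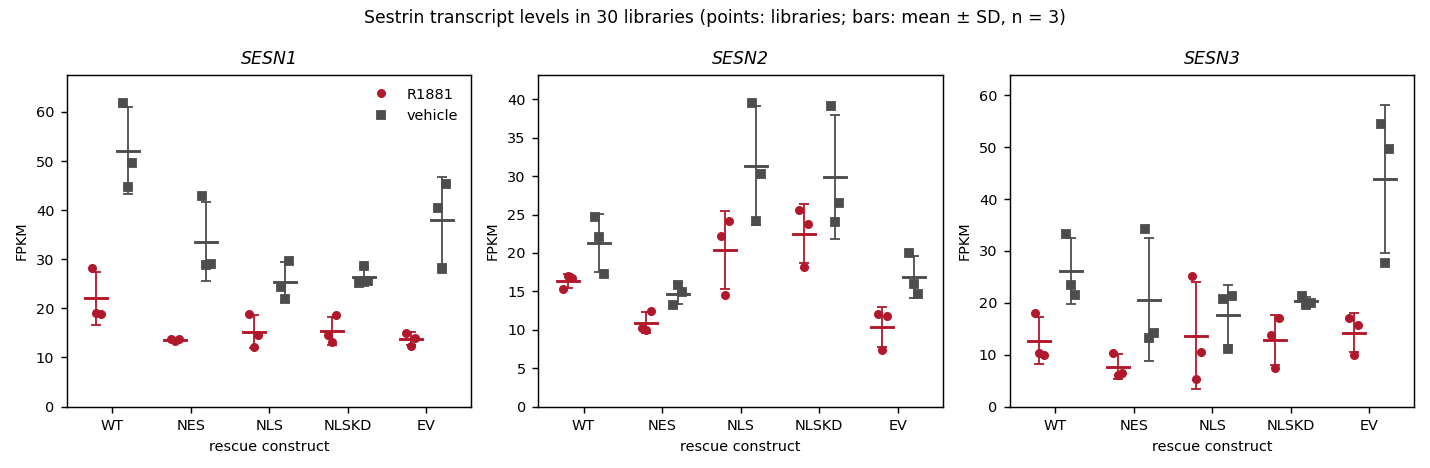
FPKM of SESN1, SESN2 and SESN3 in all 30 libraries by line, with R1881 as red circles and vehicle as grey squares; points are libraries and bars are the mean ± SD of 3. SESN1 lies lower under R1881 in every line, and SESN2 is highest in NLS and NLSKD under vehicle, where single libraries run from 24.0 to 39.6 FPKM.

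The plot of sestrin levels shows that SESN1 and SESN3 were highest under vehicle in different lines. SESN1 peaked in WT at 52.05 ± 8.86 FPKM and SESN3 in EV at 43.9 ± 14.3 FPKM (SD, n = 3 each). Under R1881 the SESN1 means of NES, NLS, NLSKD and EV lay between 13.5 and 15.4 FPKM and overlapped, with WT above them at 22.05 ± 5.40 FPKM. Over the 10 group means, log2 levels of SESN1 and SESN3 had a Pearson r of 0.835, those of SESN1 and SESN2 of 0.363 and those of SESN2 and SESN3 of 0.308. These r values describe groups that share treatments and lines, and no test was made.

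**Figure D2:**
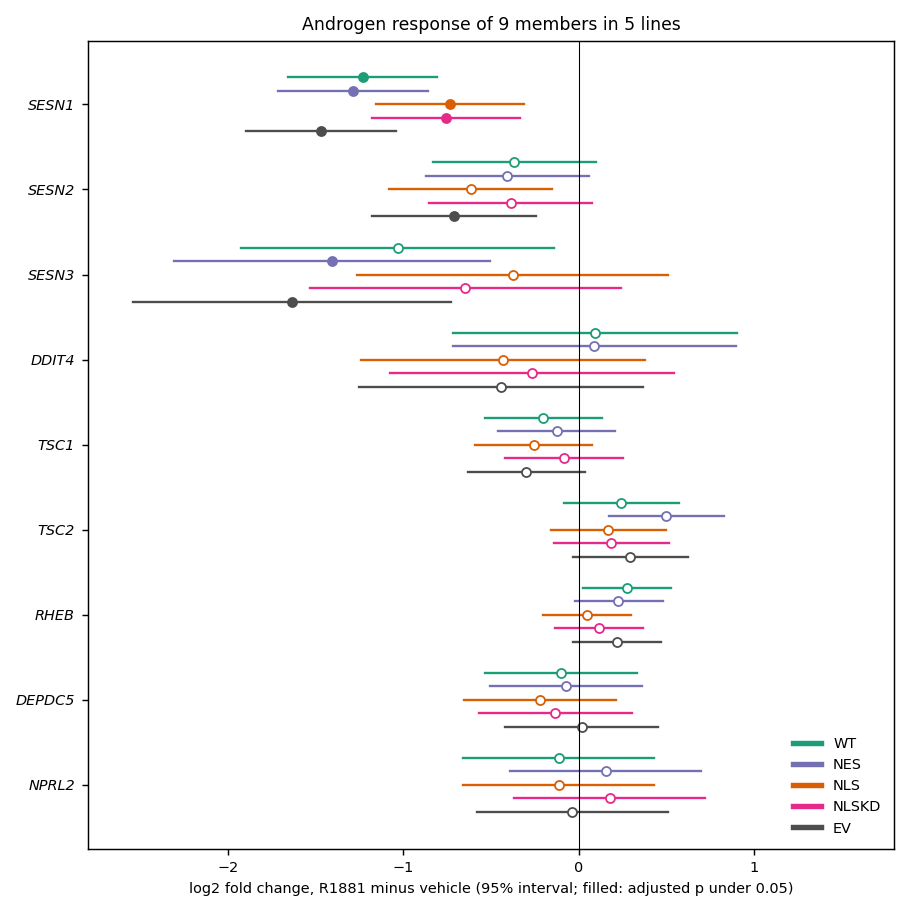
log2 fold change with R1881 over vehicle for the 9 tested members in the 5 lines, with 95% intervals; filled points passed an adjusted p of 0.05. The filled points all lie left of 0 and belong to SESN1 in 5 lines, SESN3 in NES and EV, and SESN2 in EV.

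The plot of androgen responses also shows intervals for the other 6 tested members, which mostly included 0. The interval of TSC2 in NES lay above 0 (0.17 to 0.83), as did that of RHEB in WT (0.03 to 0.53), and neither passed the adjusted threshold in the edgeR fit.

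The second comparison asked what each form of mTOR changed against the empty vector. Under R1881, 3 of 36 member and line pairs were called, all higher, or 8.33% beside 6.86% over all genes, and under vehicle 2 of 36, both higher, or 5.56% beside 5.06%. Both shares of members were near the background in either direction. The share of all tested genes called in either direction under R1881 was 8.49% (WT), 6.96% (NES), 6.23% (NLS) and 5.75% (NLSKD), with 3.66%, 3.27%, 2.79% and 2.8% called higher. Under vehicle it was 6.71% (WT), 4.94% (NES), 4.57% (NLS) and 4.01% (NLSKD), with 2.3%, 1.87%, 1.59% and 1.47% called higher. The median log2 fold change of the 9 members under R1881 was -0.05 (WT), 0.01 (NES), 0.15 (NLS) and 0.00 (NLSKD), beside 0.03, 0.03, 0.04 and 0.02 over all genes. Under vehicle it was -0.11 (WT), -0.18 (NES), 0.03 (NLS) and -0.17 (NLSKD), beside -0.01, 0.00, -0.01 and -0.02.

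SESN2 was higher in the nuclear lines than in EV. Under R1881 it had 22.2, 14.6 and 24.2 FPKM in NLS and 25.55, 18.2 and 23.7 FPKM in NLSKD, against 12.01, 7.42 and 11.7 FPKM in EV. Under vehicle it had 39.6, 24.2 and 30.3 FPKM in NLS and 39.1, 24.0 and 26.5 FPKM in NLSKD, against 20.01, 15.9 and 14.7 FPKM in EV. Every nuclear library lay above every EV library of the same treatment. Under R1881 the log2 fold change over EV was 0.98 ± 0.23 in NLS and 1.14 ± 0.23 in NLSKD (edgeR adjusted p = 0.00753 and 0.00230). Under vehicle it was 0.89 ± 0.23 in NLS and 0.82 ± 0.23 in NLSKD (edgeR adjusted p = 0.0194 and 0.0385).

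The NLSKD call under R1881 held in every fit that left out 1 library and under every alternative. That of NLS under R1881 was lost without EV R1881 replicate 2 (adjusted p = 0.0663) or NLS R1881 replicate 3 (0.0651). Under vehicle the NLS call was lost without EV vehicle replicate 2 (0.0705) or 3 (0.117) or NLS vehicle replicate 1 (0.149), and the NLSKD call without EV vehicle replicate 2 (0.137) or 3 (0.173) or NLSKD vehicle replicate 1 (0.269) or 3 (0.0547). When only the groups compared were fitted, the NLS value under R1881 and both values under vehicle missed the threshold (edgeR adjusted p = 0.161, 0.0851 and 0.0656), and without the libraries above 9% mitochondrial counts the NLSKD value under vehicle did (0.079).

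In the WT line SESN2 had 15.3, 17.0 and 16.75 FPKM under R1881, all above EV, and 24.7, 22.0 and 17.25 FPKM under vehicle. In the NES line it had 10.25, 10.0 and 12.5 FPKM under R1881 and 13.3, 15.9 and 15.0 FPKM under vehicle, which overlapped EV. The log2 fold change over EV under R1881 was 0.69 ± 0.23 in WT and 0.10 ± 0.23 in NES, and under vehicle 0.35 ± 0.23 in WT and -0.20 ± 0.23 in NES (edgeR adjusted p = 0.0608, 0.879, 0.497 and 0.870). The first passed without NLS R1881 replicate 2 (adjusted p = 0.0425) and without the libraries above 9% mitochondrial counts (0.0377). The NES intervals ran from -0.36 to 0.57 under R1881 and from -0.66 to 0.27 under vehicle.

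SESN1 was higher in WT than in EV under R1881, at 28.3, 19.0 and 18.9 FPKM against 15.0, 12.4 and 13.9 FPKM, with no overlap. The log2 fold change was 0.70 ± 0.205 (edgeR adjusted p = 0.0294). It was lost without WT R1881 replicate 1 (0.49, adjusted p = 0.210) or EV R1881 replicate 1 (0.0522), 2 (0.129) or 3 (0.0808), with only the groups compared in the fit (0.053) and with no filter on low counts (0.0597). Under vehicle the WT value was 0.46 ± 0.20 (edgeR adjusted p = 0.223) and those of NLS and NLSKD were -0.59 ± 0.20 and -0.53 ± 0.20 (0.113 and 0.197). Under a replicate block, the NLS value was -0.58 and was called (adjusted p = 0.0262), and it passed without EV vehicle replicate 2 (-0.77, 0.0335).

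SESN3 was not called against EV in any line by the edgeR test as fitted, and calls under vehicle appeared in other fits. Under vehicle its log2 fold change over EV was -0.74 ± 0.43 (WT), -1.10 ± 0.43 (NES), -1.32 ± 0.44 (NLS) and -1.12 ± 0.43 (NLSKD) (edgeR adjusted p = 0.415, 0.194, 0.0920 and 0.195). The NLS and NLSKD libraries, all at or below 21.3 FPKM, lay under the lowest EV library at 27.7 FPKM. Under a replicate block, the NLS value was -1.31 and was called (adjusted p = 0.00223), and it also passed without NLS R1881 replicate 1 or 2 (0.0385 and 0.0452) and by DESeq2 (0.0442). The NES value was -1.66 without NES vehicle replicate 1 and was then called (edgeR adjusted p = 0.0402). The NLSKD value was called with only the groups compared in the fit (0.0212), and with no filter on low counts all 4 lines were called (adjusted p from 1.68e-06 to 0.023). Without the libraries above 9% mitochondrial counts the NLS value was -0.96 (edgeR adjusted p = 0.517). Under R1881 the differences ran from -0.87 in NES to -0.06 in NLS, and that of NES passed with no filter on low counts (edgeR adjusted p = 0.00413).

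**Figure D3:**
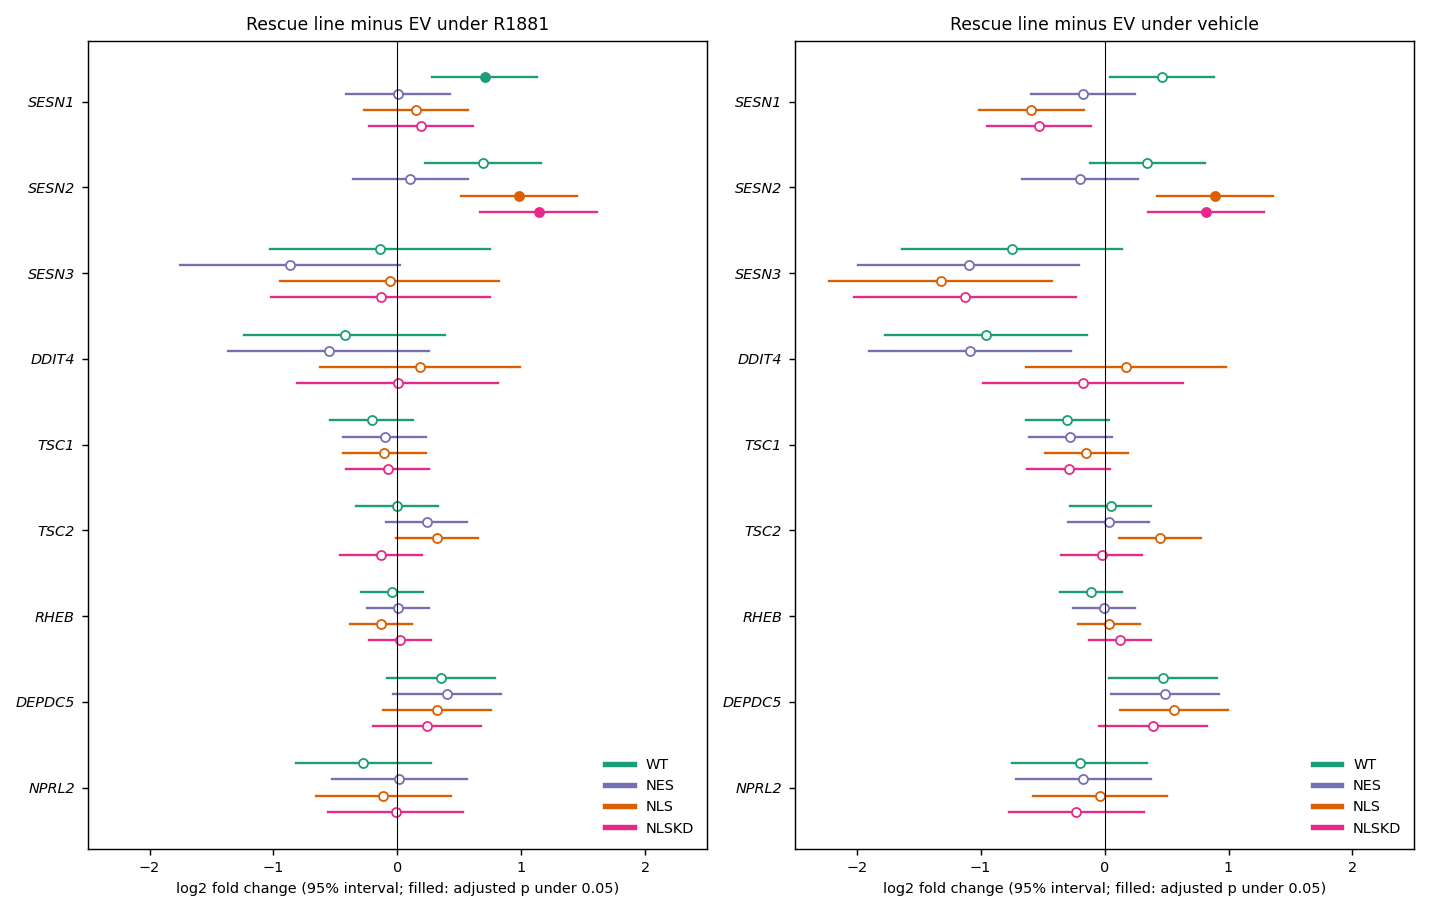
log2 fold change of each rescue line over EV for the 9 tested members, under R1881 on the left and vehicle on the right, with 95% intervals; filled points passed an adjusted p of 0.05. Filled points are SESN2 in NLS and NLSKD under both treatments and SESN1 in WT under R1881.

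The plot of rescue lines against EV places the SESN3 and DDIT4 intervals among the widest. The intervals of RHEB, the narrowest, all included 0.

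The lines were then compared with each other. Of 72 member and comparison pairs, 2 were called (2.78%, beside 0.752% over all genes). The share of all genes called was 1.37% for NLS over NES, 0.00547% for NLSKD over NLS, 1.45% for NES over WT and 0.465% for NLS over WT under R1881. Under vehicle these shares were 1.03%, 0.0109%, 1.2% and 0.481%. SESN2 was higher in NLS than in NES under vehicle, by 1.09 ± 0.23 on the log2 scale (edgeR adjusted p = 0.0128), with NLS libraries from 24.2 to 39.6 FPKM and NES libraries from 13.3 to 15.9 FPKM. Under R1881 the difference was 0.88 ± 0.23 and missed the threshold (edgeR adjusted p = 0.0507), with NLS libraries from 14.6 to 24.2 FPKM and NES libraries from 10.0 to 12.5 FPKM. Under a replicate block it was 0.86 and was called (adjusted p = 0.00948), and it was called by DESeq2 (0.0077), with RLE size factors (0.0437), with no filter (0.0139) and with a filter at a mean of 1 CPM (0.0264). It also passed in 7 of the 30 fits that left out 1 library. The call under vehicle was lost without NES vehicle replicate 1 (adjusted p = 0.0798) or 3 (0.0603) or NLS vehicle replicate 1 (0.134), and with only the groups compared in the fit (0.209).

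SESN1 was lower in NLS than in WT under vehicle, at 24.4, 21.8 and 29.7 FPKM against 61.9, 44.7 and 49.6 FPKM. The log2 fold change was -1.05 ± 0.21 (edgeR adjusted p = 0.0118), or 0.482-fold, and the groups did not overlap. The call was lost without WT vehicle replicate 1 (adjusted p = 0.126) or 3 (0.0523) or NLS vehicle replicate 1 (0.0831) or 2 (0.111), and without the libraries above 9% mitochondrial counts (0.124). NES was also below WT by 0.70 ± 0.205 under R1881 and 0.64 ± 0.20 under vehicle on the log2 scale, neither called (edgeR adjusted p = 0.105 and 0.175). The R1881 difference was called by DESeq2 (adjusted p = 0.0451), and under a replicate block the vehicle difference of NES minus WT was -0.64 and was called (adjusted p = 0.0309).

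NLSKD and NLS differ in kinase activity by design, and no member was called between them under either treatment: 0 of 18 tests by edgeR, DESeq2 or limma. Over all 18296 tested genes edgeR called 1 under R1881 (0.00547%) and 2 under vehicle (0.0109%), so the 0 of 18 does not set the members apart. Among the 18 member tests, 2 had an unadjusted p under 0.05. For SESN2 the difference NLSKD minus NLS was 0.16 ± 0.23 under R1881 (95% interval -0.31 to 0.62) and -0.07 ± 0.23 under vehicle (-0.53 to 0.39). For SESN1 it was 0.04 ± 0.20 under R1881 and 0.06 ± 0.20 under vehicle, with intervals of -0.38 to 0.46 and -0.36 to 0.48. The widest SESN2 bound corresponds to a 1.54-fold difference. The 2 tests under the unadjusted threshold were both TSC2.

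The size of the androgen response was compared between lines as an interaction, and 0 of 45 member tests were called by edgeR, DESeq2 or limma, beside 0.0437%, 0%, 0.0164% and 0.0164% of all genes for WT, NES, NLS and NLSKD over EV and 0% for NLS over NES. At an unadjusted p under 0.05 there were 3. The SESN1 response was smaller than that of EV by 0.74 ± 0.29 in NLS and 0.71 ± 0.29 in NLSKD on the log2 scale (unadjusted p = 0.0166 and 0.0205, edgeR adjusted p = 1 for both). The SESN3 response of NLS was smaller by 1.26 ± 0.61 (unadjusted p = 0.0493, edgeR adjusted p = 1). No difference in response between lines is therefore called for any member.

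DDIT4 (ENSG00000168209, chromosome 10, 72273920 to 72276036, plus strand) had the highest level per length among the members, with a median of 54.9 FPKM over all libraries, and was called in no comparison. Under R1881 its 3 libraries had 32.0, 57.6 and 45.6 FPKM (WT), 37.6, 40.45 and 46.3 FPKM (NES), 35.2, 109.3 and 64.3 FPKM (NLS), 62.8, 82.2 and 38.4 FPKM (NLSKD) and 65.2, 75.3 and 46.1 FPKM (EV). Under vehicle they had 35.2, 57.5 and 36.2 FPKM (WT), 27.65, 52.3 and 38.9 FPKM (NES), 93.3, 126.6 and 65.6 FPKM (NLS), 92.8, 80.05 and 51.5 FPKM (NLSKD) and 74.65, 135 and 42.9 FPKM (EV). Replicate 2 was the highest library in 8 of the 10 groups, and the spread within a group was as large as most differences between groups. This was not particular to DDIT4: replicate 2 was highest in 8 groups for NPRL2, 7 for RHEB, 6 for DEPDC5 and 5 for TSC2. For SESN2 and SESN1 it was highest in 2 and 1, and for SESN3 and TSC1 in 0. Of the 5 libraries above 9% mitochondrial counts, 4 were also replicate 2, and the part of this in the DDIT4 levels was not tested.

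With R1881 the DDIT4 log2 fold change ran from -0.44 in EV to 0.09 in WT, each with an SE of 0.39. Under vehicle WT and NES were below EV by 0.96 ± 0.40 and 1.08 ± 0.40 on the log2 scale, and NLS was above NES by 1.26 ± 0.40 and above WT by 1.13 ± 0.40 (edgeR adjusted p = 0.181, 0.144, 0.174 and 0.257). The NLS libraries under vehicle did not overlap those of WT or NES, while those of EV overlapped both. Without the libraries above 9% mitochondrial counts, the WT and NES differences from EV were -1.29 and -1.39 and passed (edgeR adjusted p = 0.0432 and 0.0408). With no filter on low counts all 4 differences also passed, at adjusted p values from 1.67e-05 to 0.000854. Exons of the antisense gene DDIT4-AS1 overlap 41.2% of the DDIT4 exon length, and its median count was 0.

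DDIT4L (ENSG00000145358, chromosome 4, 100185870 to 100190782, minus strand) had 3 counts over all 30 libraries, 1 in NLSKD under vehicle and 2 in EV under R1881. It had 0 counts in the other 28 libraries, and a count of 0 allows up to 3 counts, or 0.0164 to 0.0469 FPKM by library. Its level was below what this depth can compare.

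TSC1 (ENSG00000165699, chromosome 9, 132891348 to 132946874, minus strand) varied little, from a group mean of 2.02 ± 0.103 FPKM in WT under R1881 to 2.90 ± 0.364 FPKM in EV under vehicle (SD, n = 3 each). Its neighbours in the order of the 10 group means all overlapped. Outside that order, WT under R1881 lay below WT under vehicle, and WT lay below EV under both treatments. These groups did not overlap, and none of the differences was called. RHEB (ENSG00000106615, chromosome 7, 151466012 to 151520120, minus strand) ranged from 17.6 ± 1.67 FPKM in WT under vehicle to 22.3 ± 2.075 FPKM in EV under R1881, with every neighbour in that order overlapping. Between treatments, its R1881 libraries lay wholly above its vehicle libraries in WT, NES and EV, and overlapped them in NLS and NLSKD. Its log2 fold change with R1881 was positive in the 5 lines, from 0.05 ± 0.12 in NLS to 0.28 ± 0.12 in WT, and none was called (edgeR adjusted p from 0.229 to 0.982).

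TSC2 (ENSG00000103197, chromosome 16, 2047465 to 2089487, plus strand) came closest to the threshold among the members not called. In NES it had 5.25, 6.01 and 6.23 FPKM under R1881 and 3.09, 4.54 and 4.96 FPKM under vehicle, with no overlap. The log2 fold change was 0.50 ± 0.16 (edgeR adjusted p = 0.0526). It passed under a replicate block (0.51, adjusted p = 0.0172), by DESeq2 (0.0232), by limma on log2(FPKM + 0.1) (0.0496), and without NES vehicle replicate 3 (0.0351) or WT R1881 replicate 1 (0.0377). The NLS line had the highest group mean, 6.26 ± 0.507 FPKM under R1881, and NLSKD under vehicle the lowest, 4.05 ± 0.324 FPKM (SD, n = 3 each). NLSKD minus NLS was -0.45 ± 0.16 under R1881 and -0.47 ± 0.16 under vehicle (unadjusted p = 0.00903 and 0.00693, edgeR adjusted p = 1 and 0.985), and the libraries did not overlap under either treatment. Under vehicle NLS had 5.47, 5.96 and 5.41 FPKM against 4.03, 4.46 and 3.805 FPKM in EV, a log2 fold change of 0.45 ± 0.16 (edgeR adjusted p = 0.132), which passed without NES vehicle replicate 1 (adjusted p = 0.0489). Exons of PKD1 and NTHL1, with median counts of 3202 and 279.5, overlap 3.96% and 2.05% of the TSC2 exon length. Reads there could not be assigned by strand from the sources used here.

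The GATOR1 members were also without calls. DEPDC5 (ENSG00000100150, chromosome 22, 31753867 to 31908033, plus strand), the subunit that binds the Rag GTPases, had the lowest level of the tested members, with a median of 0.611 FPKM and 165 to 674 counts a library. Under vehicle it had 0.641, 0.786 and 0.695 FPKM in NLS against 0.514, 0.422 and 0.497 FPKM in EV, with no overlap, and the log2 fold change was 0.56 ± 0.21 (edgeR adjusted p = 0.163). WT, NES and NLSKD were above EV by 0.47, 0.49 and 0.39 under vehicle (edgeR adjusted p = 0.237, 0.266 and 0.484). There the WT and NLSKD libraries also lay wholly above those of EV, while those of NES overlapped them. EV had the lowest mean under both treatments. NPRL2 (ENSG00000114388, chromosome 3, 50347330 to 50351091, minus strand), the catalytic subunit of GATOR1, ranged from 8.41 ± 1.10 FPKM in WT under R1881 to 10.6 ± 1.90 FPKM in EV under vehicle, and every adjusted p was at least 0.652 in the edgeR fit. Exons of CYB561D2, whose median count was 633.5, overlap 10.8% of the NPRL2 exon length.

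**Figure D4:**
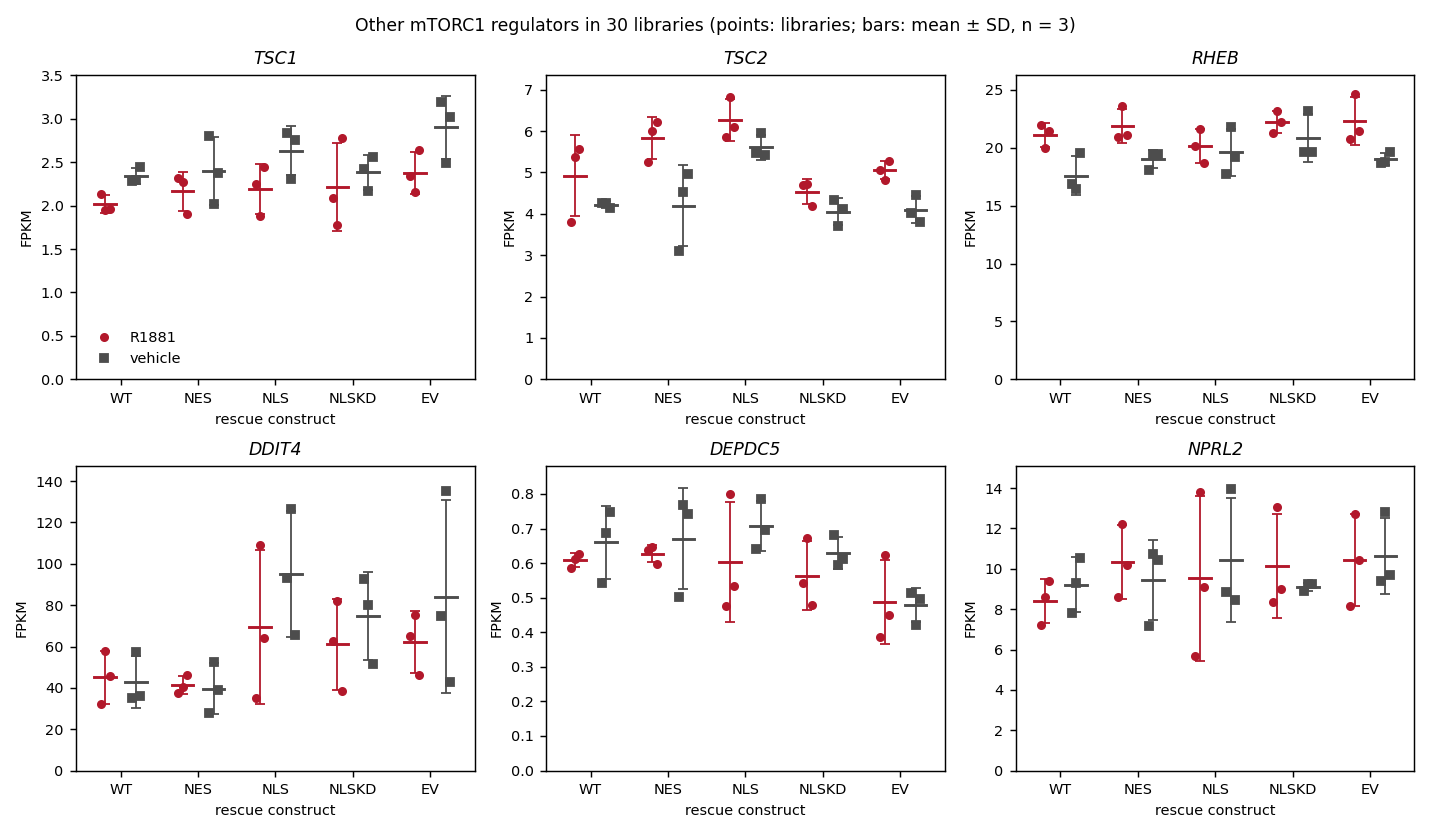
FPKM of TSC1, TSC2, RHEB, DDIT4, DEPDC5 and NPRL2 in all 30 libraries by line, with R1881 as red circles and vehicle as grey squares; points are libraries and bars are the mean ± SD of 3. TSC1, RHEB and NPRL2 differ by 1.44, 1.27 and 1.27 times between their highest and lowest group means, and DDIT4 by 2.40 times with wide spreads.

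The plot of the other members shows how little most of them moved, beside ratios of 3.84 for SESN1, 3.02 for SESN2 and 5.76 for SESN3 between the highest and lowest group means. Among neighbours in the order of the 10 group means, most overlapped. SESN1 in NES under vehicle lay above NLSKD under vehicle without overlap, as did WT under R1881 above NLSKD under R1881. SESN2 in NES under vehicle lay above NES under R1881, and TSC2 in NLS under vehicle lay above EV under R1881.

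Other genes of the pathway were taken from 8 lists of 47 genes, of which 46 were tested. With R1881, 0 rose in any line. The number that fell was 2 (WT, 4.35%), 2 (NES, 4.35%), 1 (NLS, 2.17%), 1 (NLSKD, 2.17%) and 3 (EV, 6.52%), with median log2 fold changes of 0.01, 0.15, 0.07, 0.06 and -0.03 in the same order. Over all tested genes the shares that fell were 3.01%, 4.04%, 1.66%, 1.6% and 4.55%. Over all comparisons the 46 genes gave 21 calls in 1196 tests, or 1.76% beside 3.31% of all gene tests. The lists without an edgeR call were the remaining subunits of TSC and GATOR1, GATOR2, KICSTOR, the folliculin complex and the kinases of the pathway (AKT and AMPK subunits among them). These 25 genes were pooled because their lists had no call, so their 0 calls in 650 edgeR tests follow from that choice. Of the 650 tests, 26 had an unadjusted p under 0.05 by edgeR. DESeq2 gave 3 calls among them and limma gave 0.

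Among the amino acid sensors, SLC38A9, a lysosomal arginine-sensing transporter that activates the Rag GTPases, gave all 6 calls. Its log2 fold change with R1881 was -1.31 ± 0.16 (WT), -1.19 ± 0.16 (NES), -0.98 ± 0.16 (NLS) and -0.98 ± 0.16 (NLSKD) (edgeR adjusted p = 2.85e-06, 9.7e-06, 0.000244 and 0.00024), and its value in EV was -0.47 ± 0.16 (0.0705). No difference in response between lines was called for SLC38A9 by edgeR, beside at most 0.0437% of all genes in such a comparison. In WT it stood at 2.755, 2.06 and 2.29 FPKM under R1881 and 6.23, 5.70 and 5.835 FPKM under vehicle, and in EV at 2.36, 1.97 and 2.52 FPKM under R1881 and 3.22, 2.655 and 3.55 FPKM under vehicle. Under vehicle it was higher than EV by 0.92 ± 0.16 in WT and 0.72 ± 0.16 in NES (edgeR adjusted p = 0.000383 and 0.00633), and the NES call was lost without EV vehicle replicate 2 (adjusted p = 0.0557), with no filter on low counts (0.0877) and with only the groups compared in the fit (0.184). The NLS response also missed the threshold in that last fit (0.113). RRAGA, a Rag GTPase, was lower in WT than in EV by 0.46 ± 0.13 under R1881 and 0.42 ± 0.13 under vehicle on the log2 scale (edgeR adjusted p = 0.0246 and 0.0494). These were lost in 5 (each WT R1881 library, EV R1881 replicate 1 or 2) and 24 of the 30 fits that left out 1 library, at adjusted p values up to 0.0900 and 0.188. Both were also lost with no filter (0.326 and 0.46) and with only the groups compared (0.0893 and 0.168).

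From the list of transcription factors known to act on member genes, NR3C1 was called in 5 comparisons. NR3C1, the glucocorticoid receptor gene, was at or below 0.388 FPKM in every library and was lower with R1881 in WT, NES and EV (edgeR adjusted p = 0.00492, 0.0154 and 0.000192), with 1, 0 and 3 counts in EV under R1881 and 37, 23 and 39 in EV under vehicle. Under R1881 it was higher than EV in WT and NLSKD (edgeR adjusted p = 0.0145 and 0.00231). At such counts its calls in NES and EV and both calls against EV were lost by limma on log2(FPKM + 1), and that in NES without NES vehicle replicate 1 (adjusted p = 0.324) or NES R1881 replicate 1 (0.0743) or 3 (0.0721). The call of WT over EV was lost without EV R1881 replicate 1 (0.0673) or 2 (0.0818) or WT R1881 replicate 2 (0.0682). ATF4, DDIT3, FOXO1, FOXO3 and HIF1A, a part of this list grouped with the calls known, gave 0 calls in 130 edgeR tests (0%, beside 3.31% of all gene tests). They gave 0 by limma, and 13 edgeR tests had an unadjusted p under 0.05. DESeq2 gave 2, both DDIT3 in NLS over NES (adjusted p = 0.0303 under R1881 and 0.00806 under vehicle).

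Genes most like the sestrins were looked up by the Pearson correlation of mean log2 CPM over the 10 groups, among 10304 protein-coding genes with a mean of at least 5 CPM. For SESN1 these were SGMS1 (r = 0.979), PTPN14 (0.973) and FUT10 (0.967). For SESN2 they were AARS (0.987), SLC6A9 (0.979) and BRD7 (0.979), and for SESN3 they were ZDHHC3 (0.978), LIMA1 (0.978) and CAMK2D (0.977). The 10 groups share treatments and lines, and no test was made.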

How the data were processed

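RNA of 30 LNCaP samples was read as paired ends of 150 bases. Per the file headers, the authors deposited raw counts and FPKM values (fragments scaled to the length of the gene and the size of the library) for every gene in each library. The submitters' processing notes name HISAT2 2.0.5, featureCounts 1.5.0-p3 and hg38. They give no strand setting and no rule for reads with several matches. In each library, 100% of genes with at least 100 counts gave 1 FPKM denominator within 0.1%. No 2 libraries of a group were copies of each other: chi-square per degree of freedom was 11.6 or more.

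Counts were tested in R 4.3.3 with edgeR 4.0.16 (TMM, filterByExpr, glmQLFit and glmQLFTest, two-sided), fitting the 30 libraries together with a mean for each group. Standard errors follow from the F statistic and intervals are 95%. Calls needed a Benjamini-Hochberg adjusted p below 0.05 over 18296 genes. Alternatives used DESeq2 1.42.0, limma 3.58.1, other scalings and filters, the replicate number as a block, and fits without single libraries or without the 5 above 9% mitochondrial counts. All members were named, and pathway genes were named if called, at most 3 a list. The members and lists were chosen with earlier results of these data known. Results of 2 listed genes are not reported here. Same-numbered libraries deviated together from their group means (every correlation over 0.1) in 11 of 26 comparisons, where the block is read as pairing. Over all comparisons these correlations ran from -0.279 to 0.643.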

Additional observations from a re-analysis of the deposited data

How the results depend on the processing

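The counts of member calls above were 8 with R1881, 3 against EV under R1881, 2 against EV under vehicle, 2 between rescue lines and 0 for differences in response. In that order they were 7, 3, 2, 3 and 0 with RLE size factors, 9, 3, 3, 4 and 0 with DESeq2, 8, 3, 8, 6 and 0 with no filter on low counts, 8, 3, 2, 3 and 0 with a filter at a mean of 1 CPM, and 6, 1, 1, 1 and 0 with only the groups compared in the fit. They were 10, 5, 8, 7 and 0 under a replicate block, 7, 3, 2, 2 and 0 with limma on log2(FPKM + 1), 8, 3, 2, 2 and 0 with limma on log2(FPKM + 0.1), and 5, 4, 3, 1 and 0 without the libraries above 9% mitochondrial counts. The block added 15 calls, 6 of them in comparisons where the numbers pair the samples, and these 6 stand beside their results. Leaving out 1 library gave 5 to 8, 1 to 4, 0 to 4, 1 to 3 and 0. The first count fell to 5 without EV vehicle replicate 3, NLS vehicle replicate 1 or NLSKD R1881 replicate 1, and the second to 1 without EV R1881 replicate 2. The third was 0 without EV vehicle replicate 3, 1 without EV vehicle replicate 2, NLS vehicle replicate 1 or NLSKD vehicle replicate 1 or 3, and 4 without NES vehicle replicate 1. The fourth was 1 without WT vehicle replicate 1 or 3, NES vehicle replicate 3 or NLS vehicle replicate 1. No result reversed its direction, and the cause of these moves was not tested.

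By single comparison, the count over all genes moved by more than 1.5 times in 7 of 21 with DESeq2, 6 with no filter, 12 with only the groups compared, 19 under the block, 3 with limma on log2(FPKM + 1) and 8 without the libraries above 9% mitochondrial counts. Over all genes, the calls summed over comparisons in the same order were 5921, 5017, 3701, 1100 and 14, with 4094, 3618, 2253, 382 and 3 for only the groups compared, 9224, 8669, 6306, 2784 and 69 with the block, and 7483, 6621, 4812, 2091 and 71 with DESeq2. With no filter the last 2 were 2122 and 104, with limma on log2(FPKM + 1) the last was 334, with limma on log2(FPKM + 0.1) it was 61, and without the libraries above 9% mitochondrial counts the last 2 were 675 and 9. The 3 libraries of a group limit the precision most for SESN3 and DDIT4, whose SEs were 0.44 and 0.39.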
